A study of Mus musculus with 15 samples.

Results

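Uterine transcripts were examined for 10 genes whose proteins the endometrial epithelium secretes or presents on its luminal surface: *Ltf*, *Lcn2*, *Slpi*, *Wfdc2*, *C3*, *Clu*, *Muc1*, *Muc4*, *Pigr*, and *Spp1*. They were taken by gene symbol from the array annotation, which holds 27962 symbols, and they have 18 of the 41174 probes. Of the 18 probes, 17 were bright enough to be tested, including the brightest probe of all 10 genes, and that probe stands for the gene unless another is named. *Muc1*, *Muc4*, and *Pigr* encode membrane proteins whose outer part can be released, so the 10 products are not all secreted in the strict sense.

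The study compared uterine responses to estradiol (E2) and to the weaker estrogen estriol (E3) in adult mice (10 weeks or older) that had been ovariectomized and rested for 10 to 14 days. The 5 groups of 3 uteri were saline at 24 hr, E2 at 2 hr, E3 at 2 hr, E2 at 24 hr, and E3 at 24 hr. Each uterus was 1 sample on 1 array, and all mice had intact estrogen receptor alleles as the study describes them. Hormone was given intraperitoneally as 250 ng in 100 µl of saline, and vehicle as 100 µl of saline. The strain was C57bl6/J for 12 uteri and C57bl6/Jx129 for the 3 E2 uteri of 2 hr. These 3 arrays were also read on another scanner and sat on slides of their own, so strain, scanner, slide, and treatment cannot be told apart in any value that rests on them. No saline uterus of 2 hr was analysed, and the 24-hr saline arrays were the vehicle for both times. The study's methods speak of pooled tissue while the sample descriptions speak of single uteri, so the p-values measure the spread between arrays, which may be partly technical.

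Estrogens act on the uterus through estrogen receptor α, a nuclear receptor that binds response elements in DNA or is tethered to other factors. In the rodent uterus a first wave of RNA changes comes with fluid uptake within hours of a dose, and a later wave accompanies growth and secretion by the epithelium. The secreted products protect the lumen: iron-binding proteins starve bacteria, protease inhibitors and complement proteins limit tissue damage and infection, mucins coat the surface, and the polymeric immunoglobulin receptor carries antibodies across the cell layer. *Ltf* and *C3* have long served as markers of estrogen action in the rodent uterus. Estriol differs from estradiol by an additional hydroxyl group on the D ring.

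The 60-base probes below are shown because several results below rest on whether separate stretches of a transcript gave the same change. Coordinates are those of the array annotation (build mm7), and a span longer than the probe means that the probe crosses genomic sequence missing from the transcript.

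Ltf, brightest probe, chr9:110738071-110738130, plus strand: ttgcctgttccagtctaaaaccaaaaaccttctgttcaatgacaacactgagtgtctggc
Ltf, second probe, chr9:110733462-110736512, plus strand: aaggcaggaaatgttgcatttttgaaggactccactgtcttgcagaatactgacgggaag
Lcn2, its 1 probe, chr2:32392828-32393072, minus strand: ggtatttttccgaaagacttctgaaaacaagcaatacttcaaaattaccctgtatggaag
Muc1, brightest probe, chr3:89357452-89357511, plus strand: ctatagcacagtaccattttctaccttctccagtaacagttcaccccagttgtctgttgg
Muc1, second probe, chr3:89357590-89357747, plus strand: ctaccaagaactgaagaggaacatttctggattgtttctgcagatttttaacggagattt
Muc4, probe nearest the 5′ end, chr16:32429715-32429774, plus strand: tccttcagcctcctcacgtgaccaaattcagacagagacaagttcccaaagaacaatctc
Muc4, one of the 4 probes toward the 3′ end, chr16:32453628-32455350, plus strand: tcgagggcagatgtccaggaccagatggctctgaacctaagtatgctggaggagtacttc
C3, dim second probe, chr17:55435522-55435679, minus strand: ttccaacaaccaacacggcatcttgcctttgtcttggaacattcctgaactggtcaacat

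The bright *C3* probe (chr17:55414567-55414626, minus strand), which was spotted 10 times on each array, lies toward the 3′ end of the gene from the dim one. The brightest or single probes of the other genes sit at chr14:60841778-60841837 for *Clu*, chr2:164309089-164309148 for *Wfdc2*, chr2:164095003-164095062 for *Slpi*, chr1:130755546-130755605 for *Pigr*, and chr5:103631152-103631211 for *Spp1*.

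After 24 hr of E2, 6 of the 10 transcripts rose: *Ltf*, *Lcn2*, *Clu*, *Muc1*, *Muc4*, and *Pigr*. A transcript was called changed at a p-value below 0.001 in limma's moderated test and a change of at least 2-fold, and of all 34776 probes tested 18.1% were called in this comparison and 6.93% were called higher. The median change of the 10 was 1.85 on the log2 scale, against -0.06 over all probes tested. With E3 at 24 hr the count was 5 of 10, all of them higher, where 3.81% of all probes were called and 1.85% were called higher, and the median change was 1.16 (all probes, -0.01). The same transcripts were called apart from *Clu*, whose increase stayed below 2-fold. The E3 count was 4 under normexp background correction, quantile normalization, or no scaling, each of which lost *Ltf*, and 3 to 4 with any 1 array left out. No slide held a saline array together with a 24-hr array of either hormone, so an effect of the slide cannot be told apart from that of the hormone in any 24-hr change against saline. With slide as a random block the counts were again 6 and 5, at a fitted correlation of -0.012 between arrays of 1 slide. As no slide held both groups, this fit cannot remove an effect of the slide.

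At 2 hr little of this was seen. With E2 1 transcript, *Pigr*, was called and it was lower (21.2% of all probes called, 10.7% lower), and with E3 none was called by limma (13.8% of all probes, 4.68% higher and 9.11% lower). At a Benjamini-Hochberg adjusted p below 0.05, without a minimum change, 4 of the 10 differed from saline with E2 at 2 hr, where 61.9% of all probes tested did, and 2 with E3, where 49.6% did, so both counts were below the share of all probes. The medians were -0.50 for E2 and -0.04 for E3, against -0.08 and -0.11 over all probes tested. All 4 treated groups share the 3 saline arrays, so their values are given side by side and are not independent of each other.

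**Figure D1:**
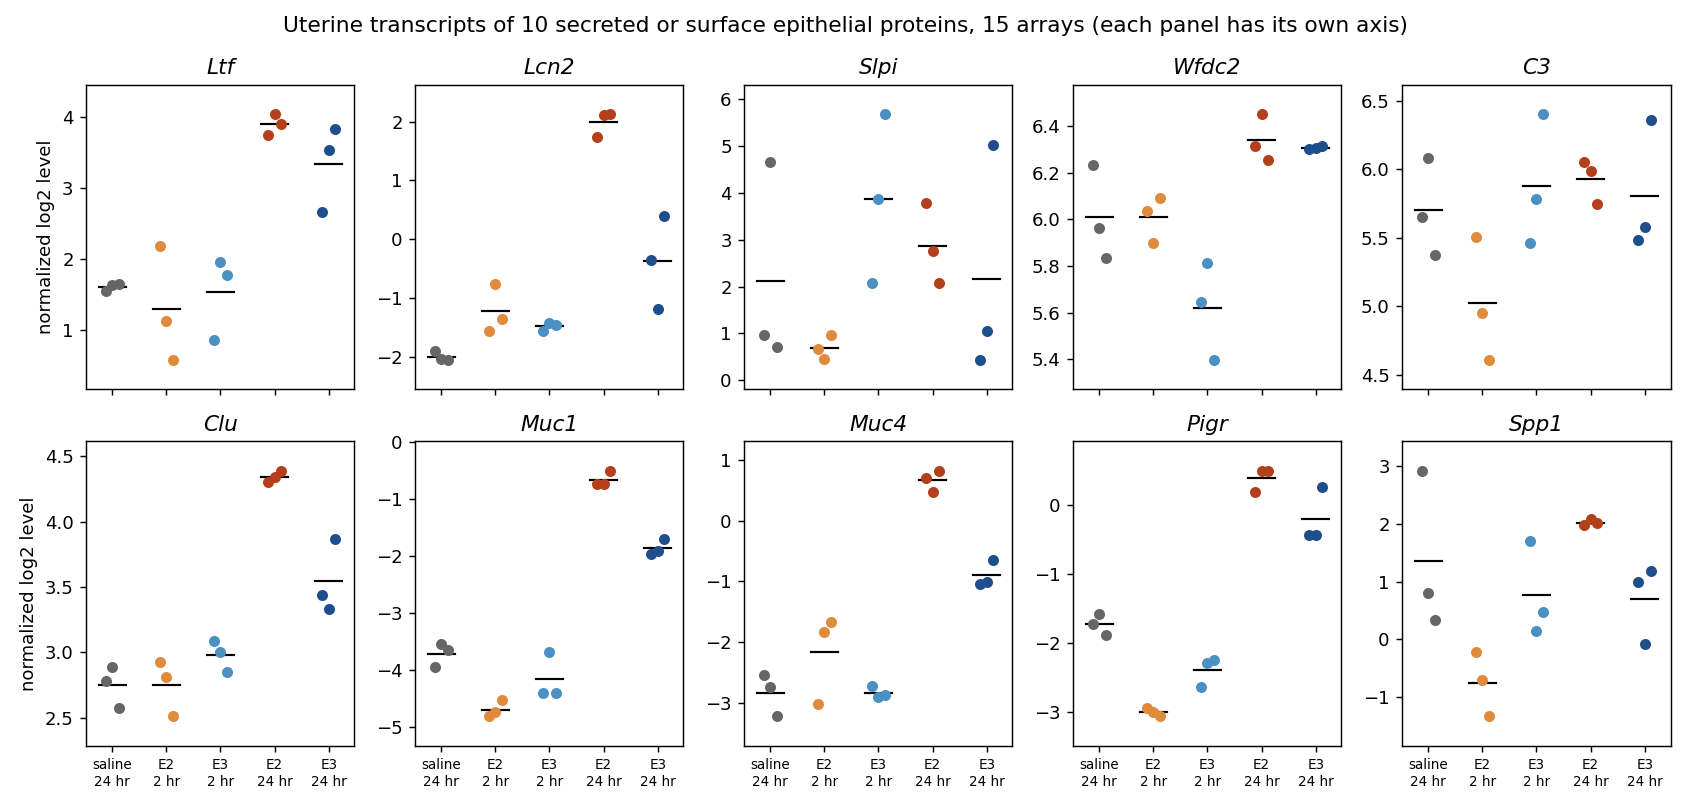
Normalized log2 level of each of the 10 transcripts (vertical axis, the log2 intensity minus that of the array's 75th percentile) on the 15 arrays, in 5 groups of 3 along the horizontal axis. Points are arrays and black lines are group means. The E2 arrays of 24 hr lie above every saline array for Ltf, Lcn2, Clu, Muc1, Muc4, and Pigr, while Slpi and Spp1 spread widely within groups.

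Levels are given as the log2 of the processed intensity relative to the 75th percentile of the array, so they compare arrays for 1 probe and not 1 gene with another. The adjusted p-values below are Benjamini-Hochberg values from limma over all probes tested. In whole uterus a larger share of epithelial cells and more RNA per cell cannot be told apart. The summed level of 16 epithelial markers (keratins, claudins, *Cdh1*, *Elf3*, and others), in multiples of the array's 75th percentile, was 95.4 to 128 on the saline arrays, 81.1 to 112 with E2 at 2 hr, 83.3 to 109 with E3 at 2 hr, 235 to 244 with E2 at 24 hr, and 154 to 165 with E3 at 24 hr. Of this sum 66.2% to 74.5% came from *Krt7*, *Krt8*, *Krt18*, and *Krt19*, and the other 12 markers summed to 27.5 to 34.4 on the saline arrays, 62.5 to 66.3 with E2 at 24 hr, and 40.4 to 43.97 with E3 at 24 hr. Among the 16, 7 were called higher and none lower with E2 at 24 hr, 2 higher and none lower with E3 at 24 hr, 3 higher and 3 lower with E2 at 2 hr, and 1 higher and 1 lower with E3 at 2 hr. Of all probes, 10.6% were called higher and 10.7% lower with E2 at 2 hr and 4.68% and 9.11% with E3 at 2 hr, so the 2-hr counts were near these shares, and at 24 hr 6.93% were called higher with E2 and 1.85% with E3. *Foxa2*, a factor of uterine glands, had changes of -0.91 and -0.71 at 24 hr, and *Ehf* of 0.15 and 0.05, none of them called. All 16 were well above background on every array, as were 10 of 10 stroma and muscle markers, which fits the tissue label. The stroma and muscle sum was also higher at 24 hr, at 543 to 590 with E2 and 576 to 676 with E3 against 400 to 481 on the saline arrays. What part of the rises below goes with these markers was not tested.

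Lactoferrin, encoded by *Ltf*, binds iron and is a classic estrogen-induced product of uterine epithelium. On the saline arrays its level was 1.55, 1.64, and 1.64. After E2 it was 2.18, 1.13, and 0.58 at 2 hr and 3.74, 4.03, and 3.90 at 24 hr. After E3 it was 0.86, 1.96, and 1.77 at 2 hr and 2.66, 3.54, and 3.82 at 24 hr. The 2-hr arrays lay on both sides of saline, and all 6 arrays of 24 hr lay above every saline and 2-hr array. The rise at 24 hr was 2.28 ± 0.40 (SE, n = 3 per group) on the log2 scale with E2 (4.86-fold, adjusted p = 0.000339) and 1.73 ± 0.40 with E3 (3.32-fold, adjusted p = 0.00588). Both probes shown above gave nearly the same change with E2 (2.30 on the second) and with E3 (1.72 on the second), but with E3 the second probe missed the p-value cutoff. The E3 call of *Ltf* was also lost, at changes of 1.49 to 1.75, on 5 of the 6 occasions when 1 array of either group was left out, all except E3 array 1.

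Lipocalin 2, encoded by *Lcn2*, captures the siderophores with which bacteria gather iron, and it showed the largest rise of the 10 with E2 at 24 hr. Its level was -1.90, -2.04, and -2.05 on the saline arrays, -1.56, -0.76, and -1.35 with E2 at 2 hr, and -1.56, -1.43, and -1.46 with E3 at 2 hr. All 6 arrays of 2 hr were therefore above all saline arrays, by 0.78 ± 0.31 with E2 (adjusted p = 0.0470) and 0.52 ± 0.31 with E3 (adjusted p = 0.196), below the 2-fold minimum. At 24 hr it was 1.73, 2.10, and 2.12 with E2 and -0.35, -1.18, and 0.40 with E3. These are rises of 3.98 ± 0.31 (15.8-fold, adjusted p = 1.05e-06) and 1.62 ± 0.31 (3.07-fold, adjusted p = 0.00229), and the arrays of the 2 compounds did not overlap. Without saline array 2, saline array 3, or E3 array 1, the E3 rise (1.60, 1.59, and 1.61) missed the p-value cutoff.

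*Slpi* encodes secretory leukocyte protease inhibitor, which blocks neutrophil elastase and also acts on bacteria, and none of its comparisons was called by limma. Replicate uteri differed widely. The level was 0.97, 4.65, and 0.72 on the saline arrays, 0.66, 0.46, and 0.98 with E2 at 2 hr, and 2.07, 3.87, and 5.66 with E3 at 2 hr. At 24 hr it was 3.77, 2.76, and 2.08 with E2 and 0.44, 1.06, and 5.01 with E3. Each group except E2 at 2 hr held a high array, and the SE of every change was 1.29 on the log2 scale. The summed level of 10 plasma and B cell markers, 9 or 10 of them well above background on each array, moved with it. It was 14.97, 65.1, and 14.5 on the saline arrays, 30.9, 61.2, and 163 with E3 at 2 hr, 66.0, 40.8, and 25.97 with E2 at 24 hr, and 15.6, 14.7, and 118 with E3 at 24 hr.

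The highest *Slpi* array was the highest array for these markers in 5 of 5 groups, also with E2 at 2 hr (15.5, 27.4, and 31.0), which held for 4 of the 100 pairs of a transcript and a marker or pathway list. *Slpi* also had the highest array of the macrophage, neutrophil, and antimicrobial lists in 4 of 5 groups, and the full order of its arrays was that of the macrophage list in 4 groups and that of the B cell list in 3. *Cd79b*, part of the B cell receptor, was at 2.26 on saline array 2 and at -0.98 and -0.83 on the other saline arrays. Without the array of the highest B cell sum in each of the 5 groups, a choice made after seeing the data, the *Slpi* change was -0.28 with E2 and 2.12 with E3 at 2 hr and 1.57 with E2 and -0.09 with E3 at 24 hr, and still none was called. Whether RNA of B cells or of other immune cells in the dissected tissue contributed to the *Slpi* signal was not tested. The second *Slpi* probe (chr2:164100217-164100276, minus strand) was well above background on 1 of 15 arrays and was not tested.

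*Wfdc2* encodes another whey acidic protein domain product of reproductive tract epithelia, and its changes were small. Its level was 5.83 to 6.23 on the saline arrays, 5.90 to 6.09 with E2 at 2 hr, 5.40 to 5.81 with E3 at 2 hr, 6.25 to 6.45 with E2 at 24 hr, and 6.30 to 6.31 with E3 at 24 hr. The 24-hr arrays of both compounds lay above the saline range by a narrow margin, with changes of 0.33 ± 0.12 (E2, adjusted p = 0.0317) and 0.30 ± 0.12 (E3, adjusted p = 0.0752). With E3 at 2 hr the change was -0.39 ± 0.12 (adjusted p = 0.0171). None of these reached 2-fold, and the 95% interval of the E2 change at 24 hr, 0.07 to 0.59, lies below a doubling. The probe was bright, with intensities of 224977 to 251538 on the saline arrays. The brightest spot of each array read 439851 to 500329 on the saline arrays and 471249 to 499322 with E2 at 24 hr. No array was flagged as saturated for this probe, and whether its brightness narrowed the changes was not tested.

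Complement component C3, the protein on which all complement pathways converge, did not pass the test in any comparison. *C3* was at 5.65, 6.09, and 5.37 on the saline arrays, 5.51, 4.95, and 4.61 with E2 at 2 hr, and 5.46, 5.78, and 6.40 with E3 at 2 hr. At 24 hr the level was 6.06, 5.99, and 5.75 with E2, within the saline range, and 5.48, 5.58, and 6.36 with E3, 1 array of which lay above it. The changes at 24 hr were 0.23 ± 0.31 with E2 (95% interval -0.44 to 0.89, adjusted p = 0.541) and 0.10 ± 0.31 with E3 (-0.56 to 0.77, adjusted p = 0.827), so a doubling lay outside both intervals. With E2 at 2 hr it was -0.68 ± 0.31 (adjusted p = 0.0705), under 2-fold and with overlap. The dim probe of *C3*, toward the 5′ end, read 0.13 with E2 (95% interval -0.91 to 1.17) and -0.12 with E3 (-1.16 to 0.92) at 24 hr. On this probe a doubling with E2 lay inside the interval. The bright probe read 150706 to 258271 on the saline arrays, so the limit given for *Wfdc2* holds for it too.

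The order of the 3 arrays by *C3* was the order by the summed level of 13 macrophage markers in 5 of 5 groups, 1 of 100 pairs of a transcript and a marker or pathway list for which this held. Those sums were 82.8, 119, and 64.9 on the saline arrays, 89.8, 68.3, and 59.1 with E2 at 2 hr, 83.4, 95.8, and 140 with E3 at 2 hr, 101, 89.2, and 77.0 with E2 at 24 hr, and 86.9, 87.9, and 156 with E3 at 24 hr, with all 13 markers well above background on every array. *C3* also had the highest array of the neutrophil and antimicrobial lists in 5 of 5 groups. The liver also makes C3, and the summed level of 20 liver markers was 32.3, 10.3, and 9.52 on the saline arrays and 0.67 to 5.77 on the other 12. *Alb1*, albumin, was at 3.38 on saline array 1 and at 1.90 and 1.54 on the other saline arrays. Among the saline arrays *C3* was highest on array 2 and the liver sum on array 1, and with E2 at 24 hr, where the liver sum was 0.67 to 0.77, *C3* was at 5.75 to 6.06. What part liver or macrophage RNA had in the *C3* signal was not tested. On the saline arrays all 20 liver markers were well above background, and on the E2 arrays of 2 hr 8 to 11 were. Without saline array 1 the *C3* changes at 24 hr remained uncalled. Saline arrays 2 and 3 still had liver sums of 10.3 and 9.52, so this does not show what part liver RNA had.

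**Figure D2:**
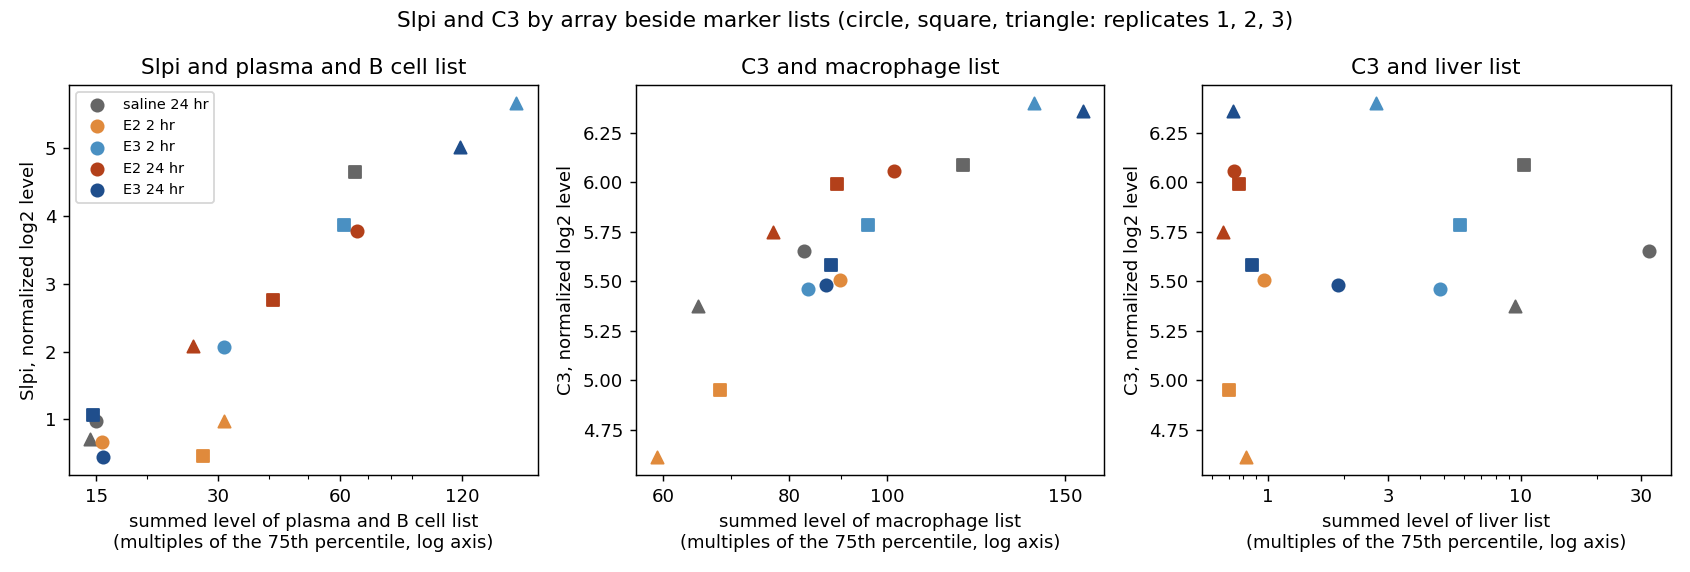
Normalized log2 level of Slpi (left) and C3 (centre and right) on each of the 15 arrays against the summed level of plasma and B cell, macrophage, and liver markers on the same array (horizontal log axes, in multiples of the 75th percentile). Colours are groups and symbols are replicates 1 to 3. The 3 arrays with Slpi above 4 have B cell sums of 65.1 to 163, E2 24-hr array 1 at a sum of 66.0 has Slpi at 3.77, and saline array 1, farthest right for liver, is not the highest saline array for C3.

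Clusterin, encoded by *Clu*, is a secreted chaperone that also inhibits the terminal complement complex. Its level was 2.78, 2.89, and 2.58 on the saline arrays, 2.93, 2.81, and 2.51 with E2 at 2 hr, and 3.09, 3.00, and 2.85 with E3 at 2 hr. By 24 hr it had reached 4.30, 4.34, and 4.39 with E2 and 3.44, 3.33, and 3.86 with E3. Every 24-hr array lay above the saline and 2-hr arrays, and the E2 arrays varied little (SD 0.04). The rise was 1.59 ± 0.15 with E2 (3.02-fold, adjusted p = 2.87e-06). With E3 the change of 0.79 ± 0.15 (1.73-fold, adjusted p = 0.00178) passed the p-value cutoff but was under 2-fold. *Clu* is also made in liver, whose markers were highest on the saline arrays, where the mean of *Clu* was 2.75, and the part of liver RNA in its signal was not tested.

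*Muc1* encodes a transmembrane mucin that covers the apical surface of the epithelium, and it had the smallest p-value with E2 at 24 hr among the 10. Its level was -3.95, -3.54, and -3.65 on the saline arrays, -4.81, -4.74, and -4.53 with E2 at 2 hr, and -4.40, -3.69, and -4.41 with E3 at 2 hr. It then reached -0.73, -0.74, and -0.50 with E2 and -1.96, -1.91, and -1.70 with E3 at 24 hr. The rises at 24 hr were 3.06 ± 0.18 (8.31-fold, adjusted p = 2.41e-07) and 1.86 ± 0.18 (3.62-fold, adjusted p = 8.16e-05), and no array of 1 compound overlapped the other. The change with E2 at 2 hr was -0.98 ± 0.18 (adjusted p = 0.000504), just short of 2-fold, with every E2 array below every saline array, and with E3 it was -0.45 ± 0.18 (adjusted p = 0.0572) with overlap. The second *Muc1* probe gave 3.11 and 1.92 at 24 hr and -0.91 and -0.54 at 2 hr.

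*Muc4* encodes a larger membrane mucin that can associate with the receptor ErbB2. The level was -2.55, -2.73, and -3.22 on the saline arrays, -3.01, -1.83, and -1.66 with E2 at 2 hr, and -2.72, -2.90, and -2.87 with E3 at 2 hr. At 24 hr it was 0.70, 0.48, and 0.82 with E2 and -1.03, -1.005, and -0.65 with E3, a clear step above saline for both and with no overlap between them. These are rises of 3.50 ± 0.29 (11.3-fold, adjusted p = 1.60e-06) and 1.94 ± 0.29 (3.83-fold, adjusted p = 0.000598). All 4 other probes of *Muc4* were called at 24 hr for both compounds, at 2.66 to 3.89 with E2 and 1.08 to 2.00 with E3, and the lowest of each range came from the probe nearest the 5′ end. At 2 hr with E2 the probes disagreed in direction: the brightest and the 5′ probe read 0.66 and 0.65, and the others -0.18, -0.39, and -0.33. Without E2 array 1 of 2 hr the change on the brightest *Muc4* probe was 1.09 and called. The accession of this brightest probe was not matched to RefSeq, while those of the 4 other probes were.

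**Figure D3:**
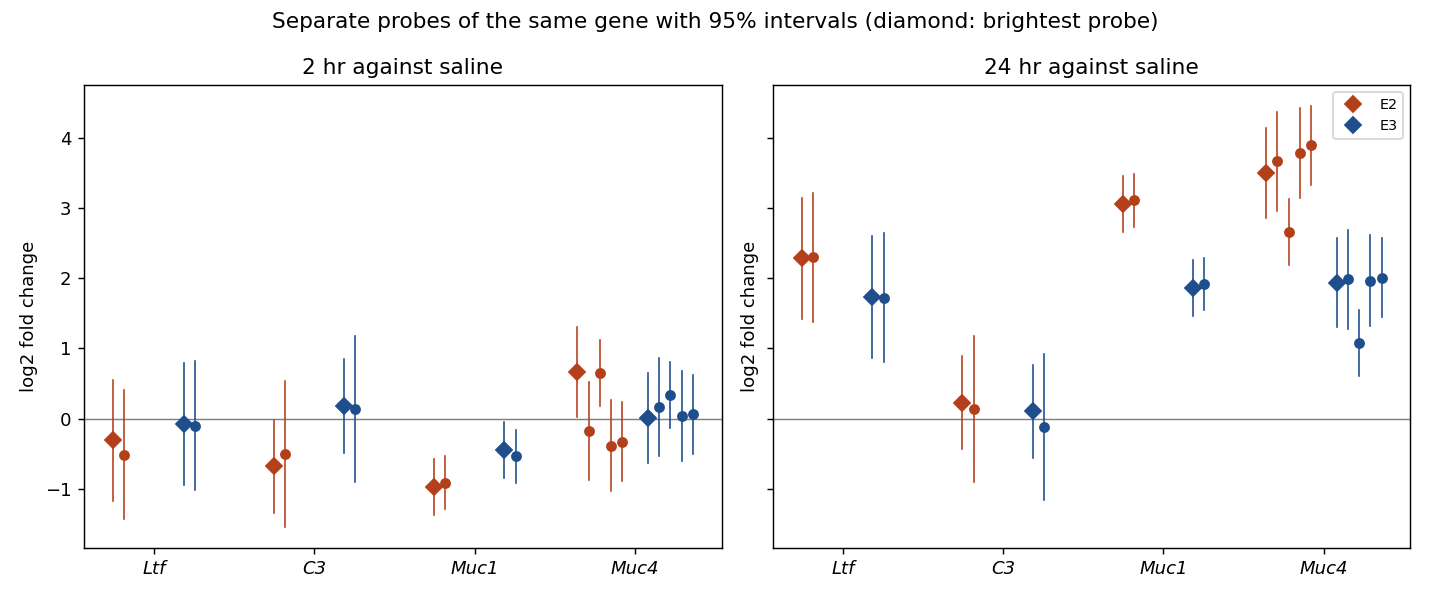
Log2 fold change against saline (vertical axis) at 2 hr (left) and 24 hr (right) from each tested probe of the 4 genes with more than 1 tested probe. Diamonds are the brightest probe, circles the other probes, and bars 95% intervals. At 24 hr the probes of a gene keep the order of E2 over E3 for Ltf, Muc1, and Muc4, and at 2 hr the Muc4 probes with E2 lie on both sides of 0.

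*Pigr* encodes the polymeric immunoglobulin receptor, which moves IgA and IgM across epithelium, and it was the only one of the 10 called in both directions. Its level was -1.72, -1.57, and -1.88 on the saline arrays, -2.94, -2.99, and -3.06 with E2 at 2 hr, and -2.64, -2.29, and -2.25 with E3 at 2 hr. At 24 hr it was 0.19, 0.49, and 0.50 with E2 and -0.43, -0.43, and 0.26 with E3. Thus all 6 arrays of 2 hr were below saline and all 6 of 24 hr above it. The 2-hr change was -1.28 ± 0.18 with E2 (adjusted p = 5.74e-05) and -0.67 ± 0.18 with E3 (adjusted p = 0.00808, under 2-fold), and within the slide that held saline array 3 and all E3 arrays of 2 hr it was -0.51. The 24-hr rises were 2.11 ± 0.18 with E2 (4.32-fold, adjusted p = 1.76e-06) and 1.52 ± 0.18 with E3 (2.87-fold, adjusted p = 0.000169).

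Osteopontin, encoded by *Spp1*, is an adhesive phosphoprotein bound by integrins. Its level was 2.92, 0.81, and 0.33 on the saline arrays, -0.21, -0.70, and -1.33 with E2 at 2 hr, and 1.70, 0.14, and 0.48 with E3 at 2 hr. The 24-hr arrays read 1.98, 2.08, and 2.02 with E2 and 0.99, -0.08, and 1.19 with E3. The E2 arrays of 24 hr sat close together above 2 of the saline arrays and below saline array 1, which also had the highest liver sum. No comparison of *Spp1* was called. With E2 at 2 hr the change was -2.10 ± 0.61 (4.29-fold lower, adjusted p = 0.00983) with no overlap of arrays, and without saline array 1 it was -1.32. With E2 at 24 hr the change was 0.67 ± 0.61 (adjusted p = 0.360), and 1.46 without saline array 1. Without that array the changes with E3 turned sign, from -0.58 to 0.20 at 2 hr and from -0.65 to 0.13 at 24 hr, and the 2-hr value within the shared slide was 0.44.

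**Figure D4:**
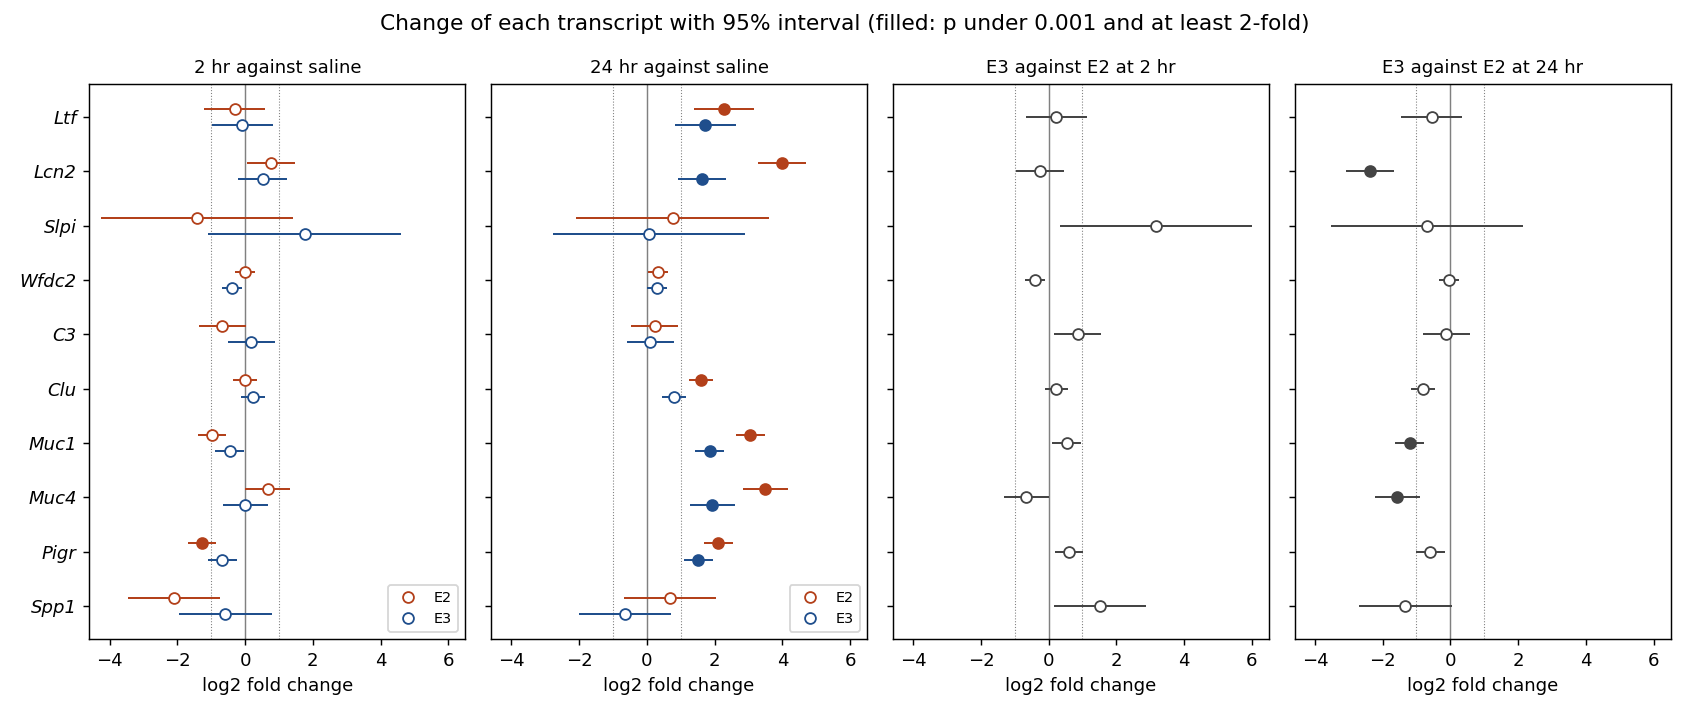
Log2 fold change of each transcript (horizontal axis, same scale in all panels) against saline at 2 and 24 hr for E2 and E3, and for E3 against E2 at each time, with 95% intervals from limma's moderated fit. Filled points passed the p-value and 2-fold cutoffs and dotted lines mark 2-fold. In the right panel the points of all 10 transcripts lie below 0 and Lcn2, Muc1, and Muc4 are filled.

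The compounds were given at the same dose and compared directly at each time, which gave 20 differences. At 24 hr all 10 transcripts had a lower mean with E3 than with E2, and 3 of them, *Lcn2*, *Muc4*, and *Muc1*, were called (4.85% of all probes called, 2.77% higher and 2.07% lower). The E3 minus E2 difference was -2.36 for *Lcn2* (95% interval -3.05 to -1.68, 5.15-fold, adjusted p = 0.000163), -1.56 for *Muc4* (-2.20 to -0.92, 2.95-fold, adjusted p = 0.00151), and -1.20 for *Muc1* (-1.60 to -0.80, 2.30-fold, adjusted p = 0.000399). In a fit of only the 6 arrays compared, the *Lcn2* difference (-2.36) missed the p-value cutoff. The median of the 10 was -0.75, against 0.06 over all probes tested. *Clu* differed by -0.80 (-1.12 to -0.48, adjusted p = 0.00130), under 2-fold.

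For *Ltf* the difference at 24 hr was -0.55 with an interval from -1.41 to 0.32 (adjusted p = 0.308), which holds both no difference and a halved level, and the arrays overlapped. *Pigr* differed by -0.59 (-0.98 to -0.20, adjusted p = 0.0223), again with overlap. The intervals of *Wfdc2* (-0.29 to 0.23) and *C3* (-0.79 to 0.54), with the limit on bright probes given above, leave out a 2-fold difference. Those of *Slpi* (-3.51 to 2.11) and *Spp1* (-2.66 to 0.01) do not. No slide held arrays of both compounds at 24 hr, so the slide cannot be told apart from the compound in these values either. The *Muc4* difference missed the p-value cutoff without E2 array 3 or E3 array 1 (-1.49 for each).

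At 2 hr none of the 10 was called between E3 and E2 by limma (7.37% of all probes called), and 4 had an adjusted p below 0.05 at less than 2-fold, close to the share of all probes at that cutoff (43.3%): *C3* (0.86), *Pigr* (0.61), *Muc1* (0.53), and *Wfdc2* (-0.39). The differences of *Slpi* (3.17, 95% interval 0.36 to 5.98, limma adjusted p = 0.0650) and *Spp1* (1.52, 0.19 to 2.85, adjusted p = 0.0624) were larger, with no overlap of arrays, but missed the p-value cutoff. Without E2 array 1, the brightest probe of *Muc4* was called lower with E3 (-1.08), while over all 3 E2 arrays 3 of the 5 *Muc4* probes read higher with E3 (0.34 to 0.42, none called) and the mean over its probes was 0.034. The change in the compound difference between the times was called for 4 of the 10, *Lcn2*, *Muc1*, *Pigr*, and *Clu*, all toward lower E3 at 24 hr (15.5% of all probes called, 4.39% lower). Like the 2-hr comparison, it rests on the E2 arrays of the other strain and scanner. The count of 4 became 1 to 4 with any 1 treated array left out. It was 2 without scaling and 2 in a fit of only the arrays compared.

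Other genes of the same pathways, in lists chosen with earlier results of these data known, moved in part with the 10. Of 7 other mucins tested, 2 were called higher at 24 hr for both compounds (of all probes 6.93% were with E2 and 1.85% with E3) and none lower. *Muc13*, a membrane mucin not well above background on any saline array, was at least 5.43-fold higher with E2 and at least 2.75-fold higher with E3 (limma adjusted p = 8.23e-05 and 0.00218). *Muc20* rose by 3.79 and 1.66 on the log2 scale and was lower with E3 than with E2 (-2.13). Of 6 other whey acidic protein domain or related inhibitor genes tested, 3 were called higher with E2 at 24 hr (*Expi* 2.73, *Wfdc3* 1.90, and *Wfdc12* 1.86) and none with E3, where 1.85% of all probes were. Their medians at 24 hr were 1.62 with E2 and 0.63 with E3.

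Of 17 other antimicrobial or iron-handling genes tested, 5 were called higher and 2 lower with E2 at 24 hr, and 1 higher and none lower with E3. Of all probes, 6.93% were called higher and 11.1% lower with E2, and 1.85% and 1.96% with E3, so the share lower with E2 was near that of all probes. The genes named as rising with E2 were *Olfm4*, an olfactomedin of gut and uterine epithelium, *Tff1* (3.77), a trefoil peptide, and *Tfrc* (2.90), the transferrin receptor. *Olfm4* was not well above background on any saline array and was at least 9.21-fold higher with E2 and at least 16.0-fold higher with E3, where it was the 1 gene called (limma adjusted p = 0.000130 and 0.000314). Those called lower were *Trf* (-1.55), transferrin, and *Bpi*, which kills Gram-negative bacteria. *Bpi* was well above background on 2 saline arrays and no E2 array of 24 hr, which bounds its fall at 1.44-fold or more (adjusted p = 0.000156). *Tfrc* was lower with E3 than with E2 at 24 hr (-2.37).

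Of 30 other complement genes tested, 2 were called higher and 9 lower with E2 at 24 hr, and 1 higher and 4 lower with E3. Of all probes tested, 6.93% were called higher and 11.1% lower with E2, and 1.85% higher and 1.96% lower with E3, so the counts of higher calls were near the share of all probes. The median changes were -0.72 and -0.16. Complement factor B (*Cfb*, 2.28) and factor I (*Cfi*, 1.70) rose with E2, and *Cfi* rose with E3 (1.35). Of the genes called lower, only those with the largest falls are named here. They are *Mbl2* (-5.09 with E2, -4.89 with E3), *Mbl1*, and *C8a*, which are known for expression in liver. *Mbl1* and *C8a* were not well above background on any 24-hr array, so their falls are bounds: *Mbl1* was at least 3.68-fold lower with E2 and 3.11-fold with E3 (limma adjusted p = 0.00113 and 0.00266), and *C8a* at least 2.56-fold and 2.15-fold (adjusted p = 8.04e-05 and 0.000297). The sum of the liver markers, of which *Mbl2* is itself one, was also higher on the saline arrays, and whether liver RNA set these falls was not tested.

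Over all 15 arrays the 10 transcripts were also compared with each other. The largest Pearson correlations between 2 of them were 0.98 for *Muc1* with *Pigr*, 0.95 for *Lcn2* with *Clu*, and 0.95 for *Lcn2* with *Muc4*, while *Slpi* with *C3* gave 0.82 and *Slpi* with *Muc4* 0.07. The points share arrays and treatment groups, so these values describe the pattern and carry no p-value. Among 23226 other genes, those most like *Ltf* were *Gpr126* (r = 0.96), *Col15a1* (0.96), and *Aldh1l2* (0.95). Those most like *C3* were *C1qb* (0.96), a macrophage complement gene, *Isg20* (0.96), and *Sfpi1* (0.96), which encodes the myeloid and B cell factor PU.1.

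The bases upstream of the start sites were searched because transcripts that rose together and *C3*, which did not, allow the letters to be set side by side. RefSeq sequence (GRCm38.p6) was at hand for 11 windows of 250 bases of 9 of the genes, not for *Clu*. The search covered both strands for the estrogen response element (GGTCA and TGACC with 3 bases between), its half-site TGACC, the AP-1 site TGACTCA, and the Sp1 box GGGCGG. In the windows below the half-site or the box is in capitals, in either orientation.

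Ltf, chr9:111019042-111019291, plus strand: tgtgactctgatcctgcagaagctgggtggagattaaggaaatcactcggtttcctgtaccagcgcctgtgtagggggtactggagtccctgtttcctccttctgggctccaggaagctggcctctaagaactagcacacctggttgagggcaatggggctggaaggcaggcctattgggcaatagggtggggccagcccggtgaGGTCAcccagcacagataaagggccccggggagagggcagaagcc
C3, chr17:57228137-57228386, minus strand: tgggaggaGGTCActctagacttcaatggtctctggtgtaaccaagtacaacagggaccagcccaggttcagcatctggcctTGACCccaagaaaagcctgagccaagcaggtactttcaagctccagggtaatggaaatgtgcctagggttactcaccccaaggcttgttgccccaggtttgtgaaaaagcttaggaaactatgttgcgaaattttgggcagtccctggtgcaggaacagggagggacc
Pigr, chr1:130826434-130826683, plus strand: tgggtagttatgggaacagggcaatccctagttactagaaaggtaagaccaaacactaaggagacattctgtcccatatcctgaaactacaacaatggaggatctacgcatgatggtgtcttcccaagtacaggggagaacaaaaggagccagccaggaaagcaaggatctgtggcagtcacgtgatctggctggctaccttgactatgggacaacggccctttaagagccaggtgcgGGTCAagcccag
Muc1, chr3:89228806-89229055, plus strand: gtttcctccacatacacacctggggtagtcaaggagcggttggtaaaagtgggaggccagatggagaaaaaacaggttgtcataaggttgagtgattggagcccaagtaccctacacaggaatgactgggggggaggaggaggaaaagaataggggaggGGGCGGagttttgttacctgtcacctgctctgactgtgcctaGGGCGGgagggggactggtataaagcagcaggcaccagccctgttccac

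No window of the 9 genes held the full element, with or without 1 mismatch, and over all 32851 windows of this length 0.0639% and 0.715% did. The half-site, which is part of the full element, was found in the windows of *Ltf*, *C3* (2 matches), *Pigr*, and 1 of the 2 for *Wfdc2*, and in 35.2% of all windows. The Sp1 box was found for *Lcn2*, *Muc1* (2 matches), and *Wfdc2* (32.7% of all windows), and TGACTCA for none (4.46%). The half-site was thus present for *C3* and *Ltf* alike and absent for *Lcn2*, *Muc1*, and *Muc4*. A match is a run of letters and not a bound site, and elements farther from the start were not searched.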

How the data were processed

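Uterine RNA was labeled with Cy3 and hybridized to one-color Agilent Whole Mouse Genome arrays, and the authors extracted the spots with Agilent Feature Extraction 9.5.3.1, which subtracts background and corrects trends within an array. The deposited scanner files hold processed intensity, mean intensity, and local background intensity for each spot on a linear scale, together with flags. The processed intensity in the deposited table of the whole series was identical (largest relative difference 0), so the authors had not normalized it between arrays.

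The 1639 control spots were dropped, which left 41174 probes, and 1893 values flagged as outliers were removed. Processed intensities were divided by the 75th percentile of their array (2989 to 4412), taken to log2, and averaged over the spots of a probe. A probe was tested if 2 or more arrays of any group had it well above background, which held for 34776 (34766 where E2 at 2 hr enters). The lowest value well above background was -8.29 to -7.76 per array. The number of arrays, 3 per group, limits the precision.

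Groups were taken from the sample titles and characteristics. Limma 3.58.1 in R 4.3.3 (with the data.table package, version 1.17.8) fitted 5 group means to 15 arrays (10 residual and 2.06 prior degrees of freedom), with 95% intervals from the moderated fit. Calls needed a p-value below 0.001, as in the study, and a 2-fold change. Adjusted p-values are Benjamini-Hochberg values over all probes tested. Where a named list gene was not well above background in 1 group, its fold is a bound against the lowest value well above background on each array, and the list medians given were the same with such genes at their bounds. The procedure was run on simulated arrays with independent noise and known changes. These held no effect of slide, strain, scanner, or cell mixture, so the run does not bear on such effects. Figures used python 3.11.15 and matplotlib 3.10.9.

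The genes and lists were chosen with earlier results of these data known. Named genes are the 10 by their brightest probe, at most 3 called genes per direction from each list, and the 3 genes most like *Ltf* and *C3*. Lists were uterine epithelium, stroma and muscle, liver, neutrophil, macrophage, plasma and B cell, complement, mucins, whey acidic protein domain, and antimicrobial or iron-handling genes. Of 16 neutrophil markers 14 were tested, and *Mpo* was the 1 called against saline at 24 hr (log2 fold change 2.75 with E2, 1.92 with E3). Of all probes 6.93% were called higher with E2 and 1.85% with E3, so 1 call of 14 with E2 was near that share. The median changes of the list were -0.21 and -0.002. Symbols matched RefSeq by accession for every probe of the 10 genes except the brightest of *Muc4*, which stands for that gene. Probe coordinates are from the array annotation (mm7), upstream sequence from RefSeq (GRCm38.p6).

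Each value was recomputed with quantile normalization, with normexp background correction (offset 50), without scaling, with a percentile taken over the probes bright on every array, without a filter for dim probes or with a mean intensity of at least 100, with other call rules, with the replicate number as a block, with slide as a random block or within a slide, on the compared arrays alone, without each array in turn, with the mean over a gene's probes, and, as a choice made after seeing the data, without the array of the highest B cell marker sum in each group.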

Additional observations from a re-analysis of the deposited data

Results flagged for a closer look

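For 4 of the 10 transcripts the change in the difference between E3 and E2 from 2 to 24 hr was called. Of all probes 15.5% were called, 11.1% higher and 4.39% lower. The E3 minus E2 difference at 24 hr minus that at 2 hr was -2.10 on the log2 scale for *Lcn2*, -1.03 for *Clu*, -1.73 for *Muc1*, and -1.20 for *Pigr*, each past the p-value and 2-fold cutoffs in limma (adjusted p = 0.00219, 0.00167, 0.000236, and 0.00234). The E3 minus E2 differences at 2 hr, none of them called, were -0.26 for *Lcn2*, 0.23 for *Clu*, 0.53 for *Muc1*, and 0.61 for *Pigr*, and those at 24 hr were -2.36, -0.80, -1.20, and -0.59, of which those of *Lcn2* and *Muc1* were called. The 4 values rest on E2 arrays of 2 hr from another strain, scanner, and slides, and these cannot be told apart from the compound. For *Muc4* the brightest probe gave -0.90, which was not called, while 3 of its 4 other probes (-2.02, -2.24, and -2.28) were called. The *Muc1* value passed when each array of the treated groups was left out in turn, and the values of *Lcn2*, *Clu*, and *Pigr* did not.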

How the results depend on the processing

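Of the single changes recomputed under the alternatives, 1163 kept their direction and their side of the cutoffs, 54 lost the call, 6 gained it, and 37 turned sign. The E2 count at 24 hr was 6 in every alternative except 1, without the array of highest B cell sum in each group, where *Ltf* (2.37) was lost and it was 5. With E2 at 2 hr the count was 2 under the 75th percentile over probes above background on all arrays, an adjusted p cutoff of 0.05 with 2-fold, and no minimum change. With E3 at 24 hr it was 6 with no minimum change, 4 under normexp, quantile normalization, no scaling, the percentile over bright probes, the replicate block, and the mean over probes, 3 in a fit of only the arrays compared, and 2 without those 5 arrays. The change of the compound difference between the times was called for 2 without scaling and for 2 in a fit of only the arrays compared. With 1 array left out the counts were 1 to 2 (E2 at 2 hr), 0 to 0 (E3 at 2 hr), 6 to 6 (E2 at 24 hr), 3 to 4 (E3 at 24 hr), 0 to 1 (E3 against E2 at 2 hr), 2 to 3 (E3 against E2 at 24 hr), and 1 to 4 (change of the difference). The E3 rise of *Ltf* at 24 hr lost its call under normexp (1.64), quantile normalization (1.66), no scaling (1.66), and 5 other settings, besides the arrays left out above, and so did *Muc1* for E3 against E2 at 24 hr under normexp (-0.93). Changes turned sign: *Wfdc2* with E2 at 2 hr (0.010 under normexp, 0.092 without scaling), *Clu* with E2 at 2 hr (-0.034 under normexp, -0.16 under quantile normalization, -0.064 under the percentile over probes above background on all arrays), *Slpi* with E3 at 24 hr (-0.082 under quantile normalization, -0.014 without scaling, -0.095 without the 5 arrays), *Ltf* with E2 at 2 hr (0.061) and for E3 against E2 at 2 hr (-0.25) without the 5 arrays, *C3* with E3 at 24 hr (-0.090 under quantile normalization, -0.0063 with the mean over probes), *Muc4* with E3 at 2 hr (-0.037 under that percentile, -0.0032 with slide as a random block), *Muc4* for E3 against E2 at 2 hr (0.034 with the mean over probes), and *Spp1* with E3 at 2 hr (0.44 within the slide). The cause was not tested. With 1 array left out, sign also turned for *Ltf* with E2 at 2 hr (-0.75 to 0.047), with E3 at 2 hr (-0.29 to 0.26), and for E3 against E2 at 2 hr (-0.13 to 0.67), *Wfdc2* with E2 at 2 hr (-0.088 to 0.11) and for E3 against E2 at 24 hr (-0.075 to 0.024), *Clu* with E2 at 2 hr (-0.086 to 0.12), *Muc4* with E3 at 2 hr (-0.19 to 0.15), *C3* with E3 at 2 hr (-0.082 to 0.39), at 24 hr (-0.17 to 0.29), and against E2 at 24 hr (-0.40 to 0.039), *Slpi* with E3 at 24 hr (-1.36 to 1.32) and against E2 at 24 hr (-2.12 to 0.16), and *Spp1* with E3 at 2 hr (-1.09 to 0.20) and at 24 hr (-1.16 to 0.13). The replicate numbers were not taken to pair the arrays (30 pairs of same-numbered arrays, correlation of deviations -0.47 to 0.55, median 0.03, 10 of them over 0.1), and with the number as a replicate block *Ltf* with E3 at 24 hr (1.73) and the change of the difference for *Lcn2* (-2.10) were no longer called, while the counts of calls were 4 of 10 for E3 at 24 hr and 3 for the change of the difference.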
